A study of Homo sapiens with 4 samples.

Results

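The regions described here are stand-alone promoters of long noncoding RNA (lncRNA) genes, chosen from the GENCODE 44 annotation of hg38 as gene 5′ ends that lie more than 5 kb from the 5′ end of every protein-coding gene. This distance rule kept 14548 of 18866 lncRNA genes, out of 38899 lncRNA and protein-coding promoters in all. Each gene was taken at the outermost 5′ end of its annotation, and starts of other transcripts of lncRNA genes were not examined. Each promoter region spanned −1000 to +100 bp around the 5′ end and counted as bound when the centre of 1 or more deposited peaks lay inside it. The 5′ end of the nearest protein-coding gene was 5004 bp away at the closest and 65616.5 bp at the median. The comparison sets were the 20033 protein-coding promoters and the 4318 lncRNA promoters that lie within 5 kb of a protein-coding 5′ end.

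The study profiled chromatin of HSSY II cells, an established human synovial sarcoma line that carries the SS18::SSX1 fusion, by CUT&RUN, in which an antibody tethers a nuclease that releases the DNA around its target. One antibody recognised SS18::SSX and the other WDR5, and cells were exposed for 4 days to the vehicle DMSO or to 2.5 µM MS67, a degrader (PROTAC) of WDR5. Each library was made from 1000000 HSSY II cells with 50000 mouse NIH-3T3 cells added as a spike-in, and there was 1 library per antibody and treatment, all from a single cell line. No difference therefore has a replicate check, no test between conditions was possible, and the 95% intervals given here (exact Clopper-Pearson for shares, Newcombe for differences of shares) cover counting error only.

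SS18::SSX joins the SWI/SNF subunit SS18 to the C-terminal part of an SSX protein and is thereby built into SWI/SNF chromatin-remodelling complexes. WDR5 is a core subunit of the KMT2 complexes that methylate lysine 4 of histone H3 at active promoters. Promoters of lncRNA genes are transcribed by RNA polymerase II as those of mRNA genes are, but fewer of them lie in CpG islands, and many of their products are made at low levels or in few tissues.

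The deposited lists held 15141 peaks for SS18::SSX in DMSO, 1175 for SS18::SSX in MS67, 35605 for WDR5 in DMSO and 14123 for WDR5 in MS67. Mean coverage, read back from the fold and −log10 p of each peak, was 0.541, 0.737, 0.368 and 0.168 fragments per bp in the same order. Mean coverage in MS67 was therefore 0.458 times that in DMSO for WDR5 and 1.36 times that in DMSO for SS18::SSX. Coverage depends on the length of the fragments as well as their number, and the number of fragments per library was not compared. Peak lists hold no expression values, and whether a given lncRNA is transcribed in these cells was not analysed here.

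The sequences of 6 promoters show the range behind the results, each from 250 bp upstream to 50 bp downstream of the gene 5′ end (hg38), written 5′ to 3′ on the gene's strand. Capitals mark every copy, on either strand, of the searched motifs CCAAT (the NF-Y motif), GGGCGG (the GC box of SP1-type factors), CACGTG (an E-box) and TGACTCA (an AP-1 site). ANKRD18DP (chr3:198080705-198081004, minus strand) held the SS18::SSX DMSO peak of lowest q-value among the members, and ANKRD36BP2 (chr2:88765557-88765856, plus strand) the WDR5 DMSO peak of lowest q-value. ENSG00000287475 (chr10:86400894-86401193, minus strand) had a peak in all 4 lists. LINC03060 (chr7:134432485-134432784, minus strand) had a strong WDR5 peak in DMSO and none in MS67, and MIR17HG (chr13:91347436-91347735, plus strand) a WDR5 peak in MS67 only. MALAT1 (chr11:65497390-65497689, plus strand) is shown as a GC-rich promoter with no peak in any list.
ANKRD18DP: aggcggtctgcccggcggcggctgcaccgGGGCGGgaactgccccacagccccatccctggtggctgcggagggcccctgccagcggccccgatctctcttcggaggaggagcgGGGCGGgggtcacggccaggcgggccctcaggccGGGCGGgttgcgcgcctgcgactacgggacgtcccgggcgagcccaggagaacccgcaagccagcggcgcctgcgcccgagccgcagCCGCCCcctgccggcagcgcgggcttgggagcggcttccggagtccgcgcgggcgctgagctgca
ANKRD36BP2: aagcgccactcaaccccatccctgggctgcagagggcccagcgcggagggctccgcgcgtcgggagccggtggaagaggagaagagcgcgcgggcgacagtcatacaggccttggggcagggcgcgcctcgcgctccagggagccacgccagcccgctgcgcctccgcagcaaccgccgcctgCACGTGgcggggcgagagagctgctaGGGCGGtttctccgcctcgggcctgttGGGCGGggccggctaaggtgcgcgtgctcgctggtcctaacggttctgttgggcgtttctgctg
ENSG00000287475: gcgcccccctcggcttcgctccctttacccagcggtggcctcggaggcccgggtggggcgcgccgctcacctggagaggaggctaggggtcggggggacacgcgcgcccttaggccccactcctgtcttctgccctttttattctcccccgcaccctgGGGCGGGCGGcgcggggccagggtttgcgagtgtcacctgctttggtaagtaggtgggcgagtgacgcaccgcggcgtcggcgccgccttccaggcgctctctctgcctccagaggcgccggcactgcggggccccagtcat
LINC03060: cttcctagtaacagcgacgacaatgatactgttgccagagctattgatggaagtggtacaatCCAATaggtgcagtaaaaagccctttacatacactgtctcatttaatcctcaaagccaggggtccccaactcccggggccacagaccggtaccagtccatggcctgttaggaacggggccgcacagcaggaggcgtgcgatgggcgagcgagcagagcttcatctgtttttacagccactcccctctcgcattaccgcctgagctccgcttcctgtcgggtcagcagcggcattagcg
MIR17HG: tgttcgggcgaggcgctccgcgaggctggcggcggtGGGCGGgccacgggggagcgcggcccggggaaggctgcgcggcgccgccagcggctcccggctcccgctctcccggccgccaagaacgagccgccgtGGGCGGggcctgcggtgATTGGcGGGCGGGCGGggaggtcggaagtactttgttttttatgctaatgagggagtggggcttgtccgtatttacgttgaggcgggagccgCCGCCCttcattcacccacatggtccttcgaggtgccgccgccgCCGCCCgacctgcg
MALAT1: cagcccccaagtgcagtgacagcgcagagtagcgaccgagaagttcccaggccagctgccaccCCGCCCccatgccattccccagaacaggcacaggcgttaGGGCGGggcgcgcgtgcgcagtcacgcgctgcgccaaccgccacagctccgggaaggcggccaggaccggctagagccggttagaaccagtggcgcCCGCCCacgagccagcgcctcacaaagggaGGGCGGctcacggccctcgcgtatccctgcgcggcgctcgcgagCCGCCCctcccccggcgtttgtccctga

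The GC content of these 300-bp windows was 78.7% for ANKRD18DP, 72.0% for ANKRD36BP2, 72.0% for ENSG00000287475, 55.3% for LINC03060, 72.7% for MIR17HG and 71.7% for MALAT1. GGGCGG occurred 4 times at ANKRD18DP, 6 times at MIR17HG and 5 times at MALAT1, so many copies of this motif were found at a promoter with a strong peak and at one with none. LINC03060 held no GGGCGG and 1 CCAAT.

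Stand-alone lncRNA promoters were bound less often than protein-coding promoters in every list. An SS18::SSX DMSO peak was centred in 309 of the 14548 regions, which is 2.12% (1.90 to 2.37), against 5.78% of all 38899 promoters and 7.68% of protein-coding promoters. WDR5 DMSO peaks were centred in 833 regions, 5.73% (5.35 to 6.12), against 19% of all promoters and 26.8% of protein-coding promoters. In MS67, SS18::SSX was found at 20 regions, 0.137% (0.0840 to 0.212), against 0.296% of all promoters, and WDR5 at 401 regions, 2.76% (2.50 to 3.04), against 10.6% of all promoters. The protein-coding share was above that of the stand-alone lncRNA promoters by 5.55 percentage points (5.12 to 5.99) for SS18::SSX and by 21.1 points (20.4 to 21.8) for WDR5 in DMSO. With only peaks of −log10 q above 5, the lncRNA shares in DMSO were 0.550% for SS18::SSX and 2.98% for WDR5, again below the protein-coding shares. Protein-coding promoters held to the same distance rule, of which there were 15027, were bound at 7.32% and 25.6%.

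LncRNA promoters within 5 kb of a protein-coding 5′ end were not bound less often than protein-coding promoters, with 9.26% (8.42 to 10.2) for SS18::SSX and 27.7% (26.4 to 29.1) for WDR5 in DMSO. Their median distance from a protein-coding 5′ end was 608 bp, so their regions can overlap protein-coding regions and count the same peaks. The shares of these classes are therefore not independent. Of the stand-alone lncRNA promoters, 1069 (7.35%) held a peak in any list, against 35.0% of protein-coding and 37.7% of the other lncRNA promoters. The most frequent pattern was a WDR5 DMSO peak alone, at 426 regions, followed by WDR5 in both treatments without SS18::SSX at 246 and an SS18::SSX DMSO peak alone at 133. Peaks in all 4 lists were found at 3 regions.

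**Figure D1:**
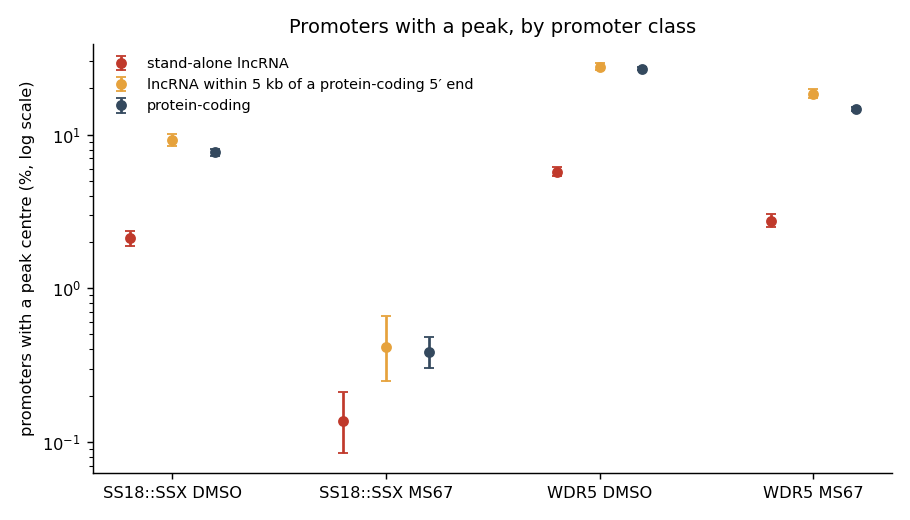
The plot gives the share of promoters with a peak centre (%, log scale) in each of the 4 lists for stand-alone lncRNA, other lncRNA and protein-coding promoters, with points for the shares and bars for the 95% Clopper-Pearson intervals. The stand-alone lncRNA promoters lie lowest in each list, between 0.137% for SS18::SSX in MS67 and 5.73% for WDR5 in DMSO.

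Peak centres gathered at the lncRNA 5′ ends, though less sharply than at protein-coding 5′ ends. Within 500 bp of a stand-alone lncRNA 5′ end, WDR5 DMSO peaks occurred at 18.8 per 1000 promoters per 250 bp, which was 5.61 times the rate at 3 to 5 kb (3.35), and the same ratio was 17.9 at protein-coding 5′ ends. For SS18::SSX in DMSO the ratio was 2.52 at the lncRNA promoters and 8.75 at protein-coding promoters. WDR5 peaks in MS67 had a ratio of 9.02 at the lncRNA promoters. The fullest bin was the first 250 bp of the gene in these 3 lists. For SS18::SSX in MS67 the ratio was 1.16, from 13 peaks within 500 bp, so hardly any gathering at the 5′ end was seen.

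**Figure D2:**
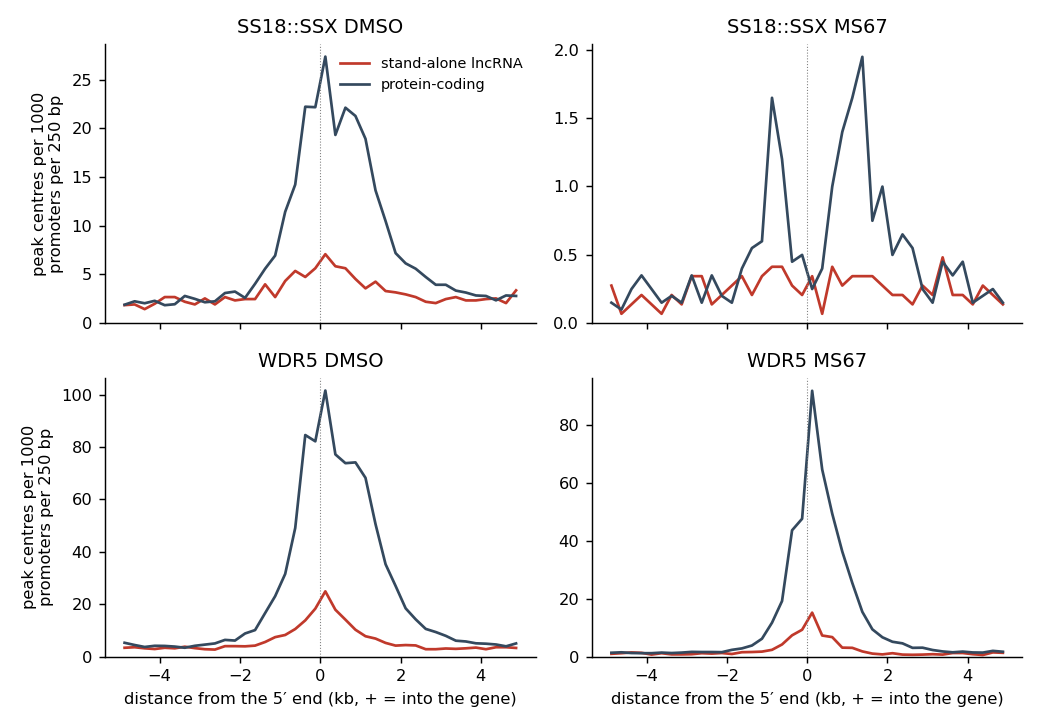
Each panel plots, for 1 peak list, peak centres per 1000 promoters per 250-bp bin against the distance from the gene 5′ end (kb, positive into the gene) for stand-alone lncRNA and protein-coding promoters, on a scale of its own. The lncRNA curve rises at the 5′ end to a centre-to-flank ratio of 5.61 for WDR5 in DMSO and 2.52 for SS18::SSX in DMSO, and stays near its flank for SS18::SSX in MS67.

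The bound lncRNA promoters were GC-rich. Median GC content was 44.8% over all 14548 regions, 60.2% over the 309 with SS18::SSX and 56.6% over the 833 with WDR5 in DMSO. A CpG-rich region is defined here as one with at least 50% GC and an observed over expected CpG ratio of at least 0.6. That definition held for 980 stand-alone lncRNA promoters (6.74%) and for 37.1% of protein-coding promoters. The CpG-rich regions made up 39.5% of those with SS18::SSX and 39.9% of those with WDR5 in DMSO.

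Among CpG-rich promoters alone, the SS18::SSX shares of the promoter classes were close. SS18::SSX in DMSO was found at 122 of the 980 CpG-rich lncRNA promoters, 12.4% (10.4 to 14.7), and at 13.4% (12.6 to 14.2) of CpG-rich protein-coding promoters, a difference of 0.911 percentage points with an interval from -1.43 to 2.99. WDR5 was found at 332, 33.9% (30.9 to 36.9), against 44.6% (43.5 to 45.7), and the difference of 10.7 points (7.51 to 13.8) lay outside counting error. Among promoters that were not CpG-rich, SS18::SSX was at 1.38% of the lncRNA and 4.32% of the protein-coding promoters, and WDR5 at 3.69% and 16.3%.

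The same rise was seen over bins of GC content. WDR5 in DMSO was at 0.804% of lncRNA promoters under 40% GC, 2.64% at 40 to 50%, 10.8% at 50 to 60% and 27.0% at 60% or more, against 43.9% of protein-coding promoters in the highest bin. SS18::SSX went from 0.151% through 0.597% and 3.48% to 14.3% (12.3 to 16.6), against 17.3% (16.2 to 18.5) of protein-coding promoters in that bin. At 60% GC or more, the protein-coding share was higher by 2.99 points (0.531 to 5.26) for SS18::SSX and by 16.9 points (13.8 to 19.8) for WDR5.

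**Figure D3:**
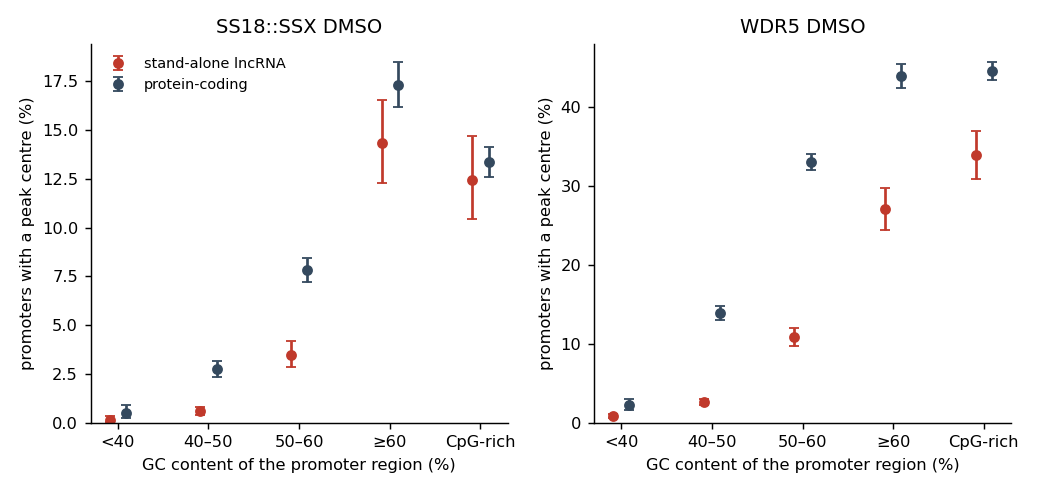
The panels give the share of promoters with a peak centre (%) in bins of the GC content of the promoter region, and at the right the CpG-rich subset, for SS18::SSX and WDR5 in DMSO, with 95% Clopper-Pearson bars. For SS18::SSX the CpG-rich lncRNA (12.4%) and protein-coding (13.4%) intervals overlap, and for WDR5 (33.9% and 44.6%) they do not.

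The GGGCGG motif followed the same division. It was found in the 300-bp window of 14.5% of the stand-alone lncRNA promoters, 50.5% (47.1 to 54.0) of those with WDR5 in DMSO, 48.9% (43.2 to 54.6) of those with SS18::SSX, 61.0% (53.0 to 68.6) of the 159 with both, and 52.4% of protein-coding promoters. Within the CpG-rich regions it was in 72.9% (67.8 to 77.6) of those with WDR5 and 76.2% (67.7 to 83.5) of those with SS18::SSX in DMSO. The share was 66.1% (62.0 to 70.0) of those with no peak. Intervals that overlap do not place a difference within counting error, and no interval of these differences was computed. CCAAT was found in 36.4% of all members and 29.5% of those with WDR5, CACGTG in 4.86% and 7.68%, and TGACTCA in 6.54% and 4.80%. Within the CpG-rich regions, CCAAT was in 22.6% (18.2 to 27.5) of those with WDR5 in DMSO and 23.6% (20.1 to 27.3) of those with no peak. In the same order, CACGTG was in 11.1% and 8.04%, and TGACTCA in 3.01% (1.45 to 5.47) and 0.714% (0.195 to 1.82). The lower CCAAT and TGACTCA shares with WDR5 over all members were thus not seen within the CpG-rich regions. Over protein-coding promoters these 3 motifs were in 35.9%, 8.36% and 3.98%. All 4 motifs were searched on both strands, none of them contains another, copies of GGGCGG can overlap at their ends, and a match describes letters only.

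The label "stand-alone" rests on the 5′ end of the gene, and 883 of the regions lay within 1 kb of the start of another transcript of a protein-coding gene. At these, WDR5 in DMSO was found at 16.5% (14.1 to 19.2) and SS18::SSX at 5.44% (4.03 to 7.14). Over the 12527 promoters more than 5 kb from every such transcript start, the shares were 5.11% (4.73 to 5.51) and 1.94% (1.71 to 2.2). Of those, the 708 CpG-rich promoters had WDR5 at 31.6% (28.2 to 35.2) and SS18::SSX at 12.0% (9.70 to 14.6). The difference from CpG-rich protein-coding promoters was then 13.0 points (9.28 to 16.5) for WDR5 and 1.35 points (-1.35 to 3.68) for SS18::SSX.

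Bound promoters were less frequent far from protein-coding genes. The WDR5 DMSO share was 7.59% at 5 to 10 kb, 7.57% at 10 to 50 kb, 5.69% at 50 to 200 kb and 2.39% (1.90 to 2.97) beyond 200 kb, where the intervals of the first pair overlap. SS18::SSX shares over the same bands were 3.36%, 2.95%, 1.77% and 0.975% (0.672 to 1.37). Promoters outside protein-coding genes, 9531 in number, had WDR5 at 5.88%, those on the opposite strand of a host gene at 6.07% and those on the same strand at 3.93% (2.91 to 5.18).

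By the gene's name, hosts of microRNAs or snoRNAs, whose introns or exons are processed into small RNAs, had WDR5 in DMSO at 17 of 89 promoters, 19.1% (11.5 to 28.8). Antisense lncRNAs had it at 9.77% (8.06 to 11.7) of 1064, LINC genes at 6.10% (5.12 to 7.20) of 2132 and the 10454 genes without a symbol at 4.80% (4.40 to 5.23). SS18::SSX was at 2.73% of antisense, 2.39% of LINC and 1.89% of unnamed genes, with intervals that overlap. Within CpG-rich promoters the WDR5 shares of these 4 classes ran from 32.8% to 39.3% with overlapping intervals.

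Where SS18::SSX was present in DMSO, WDR5 was often present too. Of the 309 promoters with SS18::SSX, 159 held a WDR5 peak, 51.5% (45.7 to 57.2), against 5.73% of all stand-alone lncRNA promoters, a ratio of 8.99. At protein-coding promoters the share was 51.4% (48.8 to 53.9), against 26.8%, a ratio of 1.91. At this threshold the share of SS18::SSX promoters with WDR5 had overlapping intervals in both classes. Within CpG-rich lncRNA promoters it was 66.4% (57.3 to 74.7) against 33.9%, a ratio of 1.96, and within CpG-rich protein-coding promoters 56.6% (53.5 to 59.7) against 44.6%. The lncRNA promoters that were not CpG-rich held 187 of the 309, with 41.7% (34.6 to 49.1) against 3.69%, a ratio of 11.3. At protein-coding promoters that were not CpG-rich it was 41.7% (37.5 to 46.0) against 16.3%, a ratio of 2.55. The values that follow are again over CpG-rich and other promoters together. The share depends on the peak threshold: with a −log10 q above 5 in both lists it was 30.0% (20.3 to 41.3), beside 2.98% of all stand-alone lncRNA promoters, and 33.1% (28.0 to 38.6) at protein-coding promoters. With −log10 q above 3 and a fold above 6 for WDR5 and 3 for SS18::SSX it was 19.6% (13.9 to 26.5), beside 1.45%, and 11.4% (9.32 to 13.6) at protein-coding promoters, and these intervals do not overlap. In the other direction, 19.1% (16.5 to 21.9) of the lncRNA promoters with WDR5 held SS18::SSX, and 14.7% (13.8 to 15.7) of the protein-coding ones.

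Peak strength at the lncRNA promoters depended on the measure. The median −log10 q of WDR5 DMSO peaks was 4.95 at the 854 lncRNA promoter peaks and 4.85 at the 5400 protein-coding ones, and for SS18::SSX it was 3.66 and 3.28. A −log10 q of 10 or more was reached by 11.6% (9.52 to 13.9) of the WDR5 peaks at lncRNA promoters and 7.83% (7.13 to 8.58) of those at protein-coding promoters. For SS18::SSX it was reached by 1.86% (0.687 to 4.01) and 2.11% (1.45 to 2.96). The median SS18::SSX fold was 4.04 at lncRNA promoters and 4.45 at protein-coding promoters, with a median local background of 2.95 and 1.38 fragments, while the median WDR5 fold was 4.88 and 4.87.

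Most peaks at stand-alone lncRNA promoters had no counterpart after MS67. Of 322 SS18::SSX DMSO peaks centred there, 307 were not overlapped by an MS67 peak, 95.3% (92.4 to 97.4), against 94.2% of the whole list and 96.6% of those at protein-coding promoters. Of 854 WDR5 DMSO peaks, 553 were not overlapped, 64.8% (61.4 to 68.0), against 75.0% of the whole list and 64.6% at protein-coding promoters. The difference between the promoter classes had an interval from -0.789 to 4.29 points for SS18::SSX and from -3.57 to 3.32 points for WDR5. When any MS67 peak within 1 kb counted as a counterpart, the WDR5 loss was 51.3% (47.9 to 54.7) at lncRNA promoters and 42.3% (41.0 to 43.7) at protein-coding promoters. Mean coverage of the WDR5 library in MS67 was 0.458 times that in DMSO, and the part of coverage in the WDR5 loss was not tested. For SS18::SSX the coverage in MS67 was 1.36 times that in DMSO, and the number of fragments per library was not compared.

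Strong WDR5 peaks were lost less often than weak ones. WDR5 loss at lncRNA promoters was 86.3% below a −log10 q of 3, 74.4% from 3 to 5, 55.3% from 5 to 10 and 35.4% at 10 or more, and the protein-coding values were 79.6%, 71.4%, 58.5% and 32.4%. By overlap, the interval of the difference between the classes included 0 in each bin. With any MS67 peak within 1 kb as counterpart, the protein-coding minus lncRNA difference in WDR5 loss was -8.95 points (-12.5 to -5.35) over all peaks, -21.2 (-28.5 to -12.9) below 3 and -11.5 (-17.5 to -5.28) from 3 to 5, and its interval included 0 in the stronger bins. For SS18::SSX by overlap, 110 of 111 peaks below 3 were lost, 96.1% from 3 to 5 and 89.6% (80.6 to 95.4) from 5 to 10. At 10 or more the loss was 83.3% (35.9 to 99.6) of only 6 peaks. With the 1-kb counterpart, the protein-coding minus lncRNA difference in SS18::SSX loss was 6.33 points (1.79 to 12.9) from 3 to 5. Its interval included 0 over all peaks and in the other bins.

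**Figure D4:**
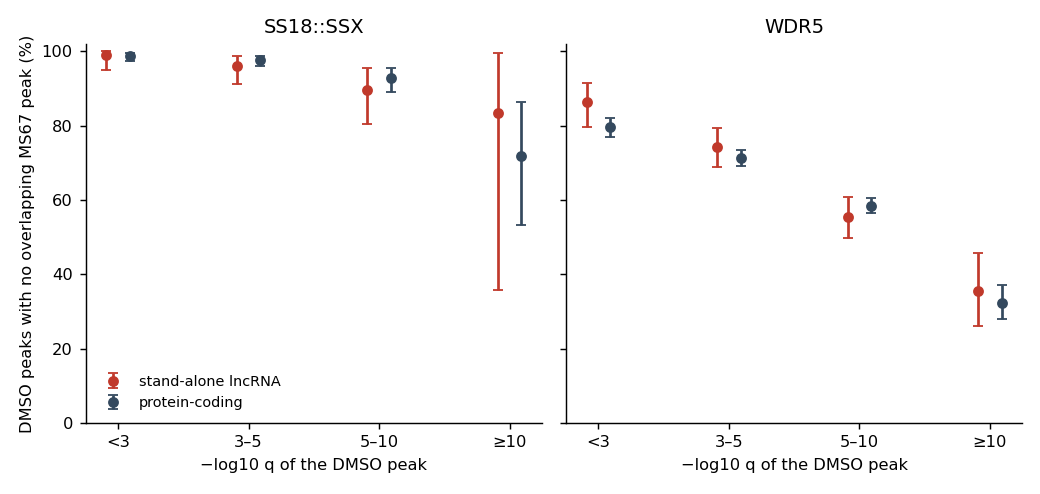
The panels give the share of DMSO peaks with no overlapping MS67 peak (%) by the −log10 q of the DMSO peak, for peaks at stand-alone lncRNA and protein-coding promoters, with 95% Clopper-Pearson bars. WDR5 loss at lncRNA promoters goes from 86.3% in the weakest bin to 35.4% in the strongest, beside 79.6% and 32.4% at protein-coding promoters.

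By promoter, 306 of 833 lncRNA promoters with WDR5 in DMSO also held a WDR5 peak in MS67, 36.7% (33.5 to 40.1), and 15 of 309 kept SS18::SSX, 4.85% (2.74 to 7.88). Protein-coding promoters kept WDR5 at 36.5% (35.2 to 37.8) and SS18::SSX at 3.25% (2.42 to 4.26). CpG-rich lncRNA promoters kept WDR5 at 49.7% (44.2 to 55.2) and the others at 28.1% (24.2 to 32.3), with median −log10 q in DMSO of 5.47 and 4.95. CpG-rich protein-coding promoters kept it at 41.3% (39.6 to 43.0) and the others at 28.7% (26.7 to 30.7). WDR5 was kept at 37.7% (30.2 to 45.8) of lncRNA promoters that also held SS18::SSX and 36.5% (32.9 to 40.3) of those that did not. Of the 397 WDR5 MS67 peaks at lncRNA promoters, 90 had no overlapping DMSO peak, 22.7%, against 32.6% at protein-coding promoters, a difference of 9.98 points (5.29 to 14.2).

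The SS18::SSX DMSO peaks of lowest q-value were found at promoters with and without near-identical copies. ANKRD18DP, named as a pseudogene of the ankyrin-repeat gene family ANKRD18, had a peak at chr3:198080840-198081933 of −log10 q 17.6 and 7.31-fold enrichment, with 38 fragments at the summit over a local background of 4.33. In MS67 its SS18::SSX peak had −log10 q 2.79, with 32 fragments over a background of 11.0, so the fragment number was close to that in DMSO and the background was higher. WDR5 was there in DMSO (−log10 q 7.64) and not in MS67.

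ENSG00000229382 had −log10 q 11.2 with 41 fragments over a background of 8.28. It lies in one of the 100 of 1993 1-Mb bins with the highest local background in the WDR5 DMSO list (3.61 or more fragments, against a median of 1.69), and the part of this background in its peak was not tested. In these bins SS18::SSX was found at 8.13% (6.13 to 10.5) of 640 lncRNA promoters, against 1.85% (1.63 to 2.09) in the others, and WDR5 at 10.2% against 5.52%.

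ENSG00000271788 had −log10 q 12.6 with 34 fragments (chr5:43007307-43008020), and FAM86JP, a pseudogene of the FAM86 family, −log10 q 11.3 with 17 fragments and 9.02-fold enrichment (chr3:125915937-125916395). Neither had an SS18::SSX peak in MS67, and each had a WDR5 peak in MS67 (−log10 q 3.70 and 4.80) but none centred in the region in DMSO. At FAM86JP this WDR5 peak (chr3:125915528-125915698) was centred at -996 bp, close to the upstream edge of the region, and did not overlap the SS18::SSX peak. A WDR5 DMSO peak centred just outside the region would not count here, so a gain of WDR5 in MS67 does not follow. FAM86JP has 3 near-identical copies elsewhere in hg38 (at least 95% identity over at least 500 bp), so its fragments may belong to another copy. Such copies were found for 1265 of the regions, and these held 57 of the 833 WDR5 and 19 of the 309 SS18::SSX DMSO promoters.

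The strongest WDR5 peak in DMSO was at ANKRD36BP2, a pseudogene of ANKRD36B, at chr2:88764934-88766187, with −log10 q 25.7, 11.8-fold enrichment and 36 fragments over a background of 2.13. It remained in MS67 at −log10 q 12.3 with 20 fragments, and SS18::SSX was there in DMSO at 6.55 and not in MS67. ENSG00000265948, within an intron of GREB1L, had −log10 q 24.3 with 36 fragments in DMSO (chr18:21315796-21316283) and 9.05 with 15 fragments in MS67, although its promoter GC content was 44.7%. At LINC03060 the WDR5 peak (chr7:134432360-134433114) of −log10 q 22.0, 11.7-fold with 30 fragments, had no counterpart in MS67. CROCCP2, a pseudogene of the ciliary rootlet gene CROCC with 1 near-identical copy, had 21.1 in DMSO (chr1:16644521-16645146) and 8.74 in MS67. ENSG00000258256, which starts in an exon of the carbonic anhydrase gene CA13 on the opposite strand, had 20.7 with 28 fragments in DMSO and 5.0 with 7 fragments in MS67. Among these 5, the MS67 value was below the DMSO value at each of the 4 that kept a peak, in a library with 0.458 times the coverage.

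Of the 5 leading WDR5 peaks in MS67, 4 lay near the start of a protein-coding transcript. MPP7-DT, a divergent transcript 236 bp from a start of MPP7, had −log10 q 13.0 with 17 fragments in MS67 and 11.5 with 20 fragments in DMSO. SETD4-AS1, 47 bp from a start of the methyltransferase gene SETD4, had 12.2 with 17 fragments in MS67 and 8.45 with 17 fragments in DMSO. STEAP2-AS1, 51 bp from a start of the metalloreductase gene STEAP2, had 12.1 in MS67 and 15.3 in DMSO. CCNY-AS1, 108 bp from a start of the cyclin gene CCNY, had 12.8 with 36 fragments in MS67 and no WDR5 DMSO peak centred in its region, but its MS67 peak (chr10:35337106-35337689) was centred close to the upstream edge of the region. CCNY-AS1 lies in a bin of raised background, and the local background of this MS67 peak was 5.16 fragments. The fifth was ANKRD36BP2.

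Only 20 promoters had SS18::SSX in MS67. The lowest q-value was at DBET, a transcript of the D4Z4 macrosatellite repeat, with −log10 q 6.33 (chr4:190064424-190064687), 13 fragments over a background of 0.927 and no peak in the other 3 lists. DBET has a near-identical copy and belongs to a repeat array, so the place of its fragments is uncertain. ENSG00000259199 had −log10 q 4.27 with 19 fragments and no DMSO peak. LINC01990 had 4.13 in MS67 and 4.70 in DMSO, at neighbouring peaks that do not overlap. GLIS3-AS2, 157 bp from a transcript start of the transcription factor gene GLIS3, had 4.11 in MS67 and 5.45 in DMSO, with WDR5 at 12.2 in DMSO. GLIS3-AS2 lies in a bin of raised background.

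Peaks in all 4 lists were present at 3 promoters. ENSG00000287475 had an SS18::SSX −log10 q of 6.36 in DMSO and 5.05 in MS67, with 18 and 20 fragments, and a WDR5 −log10 q of 9.02 and 4.75, with 32 and 13 fragments. LINC02043, 17183 bp from the adiponectin gene ADIPOQ, had SS18::SSX values of 3.83 and 3.29 and WDR5 values of 10.4 and 3.09. ENSG00000259869 had SS18::SSX values of 4.03 and 2.59 and WDR5 values of 5.96 and 2.77. At each of the 3, the −log10 q of the strongest peak of both targets was lower in MS67. The SS18::SSX fragments at its summit were not lower (18 and 20 at the first, 18 and 23 at LINC02043, 17 and 18 at ENSG00000259869). However, the SS18::SSX peaks compared overlap at ENSG00000287475 only. At LINC02043 and ENSG00000259869 they lie at separate places, as do the WDR5 peaks at ENSG00000259869, so these values do not follow a single peak. ENSG00000287475 and LINC02043 lie in bins of raised background.

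A WDR5 peak in MS67 with no WDR5 DMSO peak within 1 kb of the region was found at 29 promoters, and the corresponding SS18::SSX pattern at 4. For WDR5 the leading ones were ENSG00000289699, which shares its start with a transcript of the adaptor gene DAB2 (−log10 q 5.0, 15 fragments), MIR17HG, host of the miR-17-92 cluster (4.96, 9 fragments), and AATBC (4.50, 7 fragments). For SS18::SSX they were DBET, ENSG00000259199 and LINC02855 (2.60, 24 fragments). Such peaks were not particular to these promoters. Counted by peak, 33 of 397 WDR5 MS67 peaks at stand-alone lncRNA promoters had no WDR5 DMSO peak within 1 kb. At protein-coding promoters it was 382 of 2824. The SS18::SSX counts were 4 of 20 and 12 of 75.

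**Figure D5:**
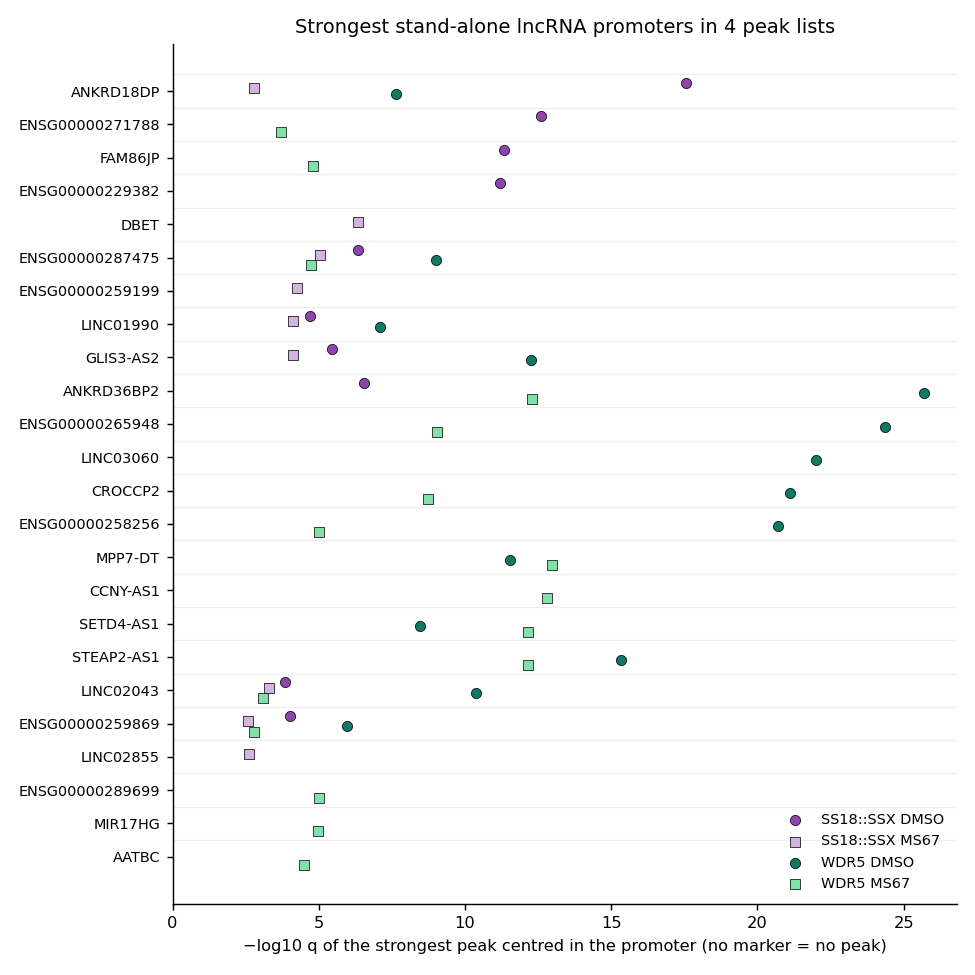
The plot gives −log10 q of the strongest peak centred in each named promoter (x axis) for the 4 lists, with circles for DMSO, squares for MS67 and no marker where a list has no peak there. WDR5 DMSO values lead at ANKRD36BP2 (25.7) to ENSG00000258256 (20.7), and SS18::SSX MS67 values stay at or below 6.33.

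Some well-known lncRNA genes held WDR5 at their promoters. Of a list of 36 such genes, 23 met the distance rule, and none of them held SS18::SSX in either treatment. Over all stand-alone lncRNA promoters the SS18::SSX share was 2.12% in DMSO and 0.137% in MS67. At shares this low, an absence among 23 promoters does not set them apart. WDR5 was found in DMSO at 5 (21.7%) and in MS67 at 2 (8.70%), beside 5.73% and 2.76% of all stand-alone lncRNA promoters. The DMSO peaks were at FTX, a regulator of X inactivation (−log10 q 6.20, 14 fragments), LINC01116 (3.48, 10 fragments), LINC00461 (3.20, 6 fragments), MIAT (2.46, 6 fragments) and MIR99AHG (1.88, 4 fragments). All 5 were absent from the MS67 list, where the peaks were at MIR17HG and at KCNQ1OT1, the antisense transcript of the imprinted KCNQ1 locus (2.78, 9 fragments). No peak centre of any list fell in the promoter regions of NEAT1 and MALAT1, abundant nuclear RNAs, NORAD, which binds Pumilio proteins, or the imprinted H19 and MEG3, nor in those of the remaining genes of the 23. These regions lie at the outermost annotated 5′ end of each gene. Promoters at other transcript starts of these genes were not examined, so binding there is not known from these counts.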

How the data were processed

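The CUT&RUN data of HSSY II cells were analysed from 4 deposited narrowPeak lists, 1 per antibody (SS18::SSX or WDR5) and treatment. Per the labels and the methods of the study, the authors aligned reads to hg38 and the mouse spike-in genome with Bowtie2, removed duplicates with Picard and called peaks with MACS2; SAMtools 1.9 and bedtools 2.28.0 are named in the submitters' processing notes. MACS2 options and a control library are not given in the sources used here. For each peak the authors deposited a fold enrichment at the summit (ratio of fragments to the background nearby), −log10 p and −log10 q. The deposited score is a rescaled −log10 q and was not used. The lists carry no spike-in scaling.

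Gene 5′ ends and types came from GENCODE 44 and sequence from hg38. The members, name classes, motifs and gene lists were chosen with earlier results of these data known. A peak was assigned by its centre, and a lost peak is a DMSO peak that no MS67 peak overlaps by 1 bp. Whole-number fragment counts at summits and the local background were solved from fold and −log10 p under the MACS2 formulas (tolerance 0.001; 100% of peaks in each list gave whole numbers). Named promoters are the 5 of lowest q-value in each list, those with peaks in all 4 lists, the leading 3 per antibody found in MS67 only, and the list of 36 known lncRNAs. One promoter of the first set is not reported here. Near-identical copies were sought with minimap2 2.31-r1302. Analyses used Python 3.11.15, pandas 2.3.3, scipy 1.17.1 and pysam 0.24.0, and scripts were tested on simulated data. Neighbouring promoters can share a peak: 804 members share a region with another, and 35 WDR5 DMSO peaks were centred at more than 1 member, so counts are not fully independent. Alternatives varied the region, the assignment, the peak threshold, the distance rule and the subset of promoters.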

Additional observations from a re-analysis of the deposited data

How the results depend on the processing

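Of 79 comparisons of a stand-alone lncRNA promoter value with its value under another setting, 49 moved by less than the counting interval and 30 moved by more. The protein-coding share was above the lncRNA share in all 11 settings for SS18::SSX in DMSO and for WDR5 in DMSO and in MS67, and in 10 of 11 for SS18::SSX in MS67, where CpG-rich regions gave 0.605% against 0.714%. Other orders between the classes turned with the setting: the protein-coding value was above the lncRNA value in 5 of 12 settings for WDR5 loss (86.4% against 81.1% at −log10 q above 5), 11 of 12 for SS18::SSX loss and 4 of 11 for WDR5 at promoters with SS18::SSX. Settings that changed the lncRNA set alone were compared with the main protein-coding value. These were the 2 stricter distance rules, merged regions and promoters outside protein-coding genes, so these counts of settings are not independent. Merging overlapping regions cannot change the losses, which count each peak once. With promoters more than 5 kb from every transcript start of protein-coding genes, the WDR5 share was 5.11% in DMSO and 2.29% in MS67. A region of −500 to +500 bp gave WDR5 shares of 7.15% and 3.73%. Counting any overlap of a peak with the region gave 2.52% for SS18::SSX in DMSO, 7.90% and 3.73% for WDR5, and 60.7% for WDR5 at promoters with SS18::SSX. A −log10 q above 5, which leaves fewer peaks in each list, gave 0.550% and 0.0137% for SS18::SSX, 2.98% and 0.742% for WDR5, losses of 98.8% and 81.1%, and WDR5 at 30.0% of promoters with SS18::SSX. The peak standard stated by the study (−log10 q above 3 with a fold above 6 for WDR5 and above 3 for SS18::SSX) also leaves fewer peaks and gave 1.15% and 0.0687%, 1.45% and 0.818%, a WDR5 loss of 74.4%, and 19.6%. Leaving out the bins of raised background gave 1.85% for SS18::SSX in DMSO. An MS67 peak within 1 kb as counterpart gave losses of 91.9% and 51.3%. The settings added after seeing the data were CpG-rich regions only, with 12.4%, 0.714%, 33.9%, 22.0%, a WDR5 loss of 55.1% and 66.4% of SS18::SSX promoters with WDR5, and regions without a near-identical copy, where no value moved by more than its interval. Where the number of peaks or promoters kept does not account for a move, the cause was not tested. No paired analysis was possible because each condition has 1 library and the lists carry no replicate numbers. The WDR5 MS67 library had the lowest coverage, at 0.168 fragments per bp, which limits what its list can hold. Only 20 promoters had SS18::SSX in MS67, in a library of 0.737 fragments per bp.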

Other observations

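The bound stand-alone lncRNA promoters were spread over the genome. WDR5 in DMSO was found at 9.46% (7.35 to 11.9) of the 666 members on chromosome 7 and 9.25% (6.41 to 12.8) of the 346 on chromosome 22, and at 1.96% (1.08 to 3.27) of the 714 on chromosome 4. Protein-coding promoters on the same chromosomes had WDR5 at 30.9%, 28.6% and 22.6%. Genes annotated with a single exon, 1973 in number, had WDR5 at 7.20% (6.10 to 8.43) of their promoters, against 5.50% (5.10 to 5.91) of the others. The divergent transcripts more than 5 kb from a protein-coding 5′ end were few: of 29, 3 held WDR5 in DMSO and 6 in MS67. Over all stand-alone lncRNA promoters the shares were 5.73% and 2.76%. Divergent transcripts can still start near another transcript of a protein-coding gene, as MPP7-DT does at 236 bp from a start of MPP7.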
